A study of Homo sapiens with 12 samples.

Results

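The genes described here encode the nuclear subunits of the respiratory chain and ATP synthase. They were chosen by name, as protein-coding genes of GENCODE release 29 whose symbols mark subunits of complexes I to V (NDUFA, NDUFB, NDUFC, NDUFS and NDUFV; SDHA to SDHD; UQCR; COX4 to COX8; ATP5), without the NDUFAF assembly factors. The rule found 90 of the 59424 genes in the tables, with 39 in complex I, 4 in complex II, 9 in complex III, 17 in complex IV and 21 in complex V. A further annotated gene has a matching symbol but is not among these 59424 genes, so it was not analysed. RNA had been sequenced from 2 prostate cancer cell lines with altered GALNT7, an enzyme that adds N-acetylgalactosamine in O-linked glycosylation. CWR22Rv1 cells carried a lentiviral control (shControl) or a knockdown of GALNT7 (GALNT7 KD). DU145 cells carried a lentiviral open reading frame control (OEControl) or overexpressed GALNT7 (GALNT7 OE). There were 3 biological replicates in each of the 4 groups. The stable lines came from lentiviral transduction, and whether replicates came from separate transductions is not given in the sources used here.

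The respiratory chain lies in the inner mitochondrial membrane. Complex I takes electrons from NADH and complex II from succinate, complex III passes them to cytochrome c, and complex IV hands them to oxygen. Complexes I, III and IV pump protons, and complex V, the ATP synthase, uses the returning protons to make ATP. Complex II also works in the TCA cycle and is built from nuclear genes alone, whereas the other complexes also hold subunits encoded by mitochondrial DNA. Many of the nuclear genes have promoters with sites for the factors NRF1, GABP (an ETS family factor) and YY1.

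The reads of genes recovered from the normalised counts summed to 18364512 to 24356910 per library. By the sum of the 13 mRNAs encoded by mitochondrial DNA, 3 libraries stood apart: replicate 2 of shControl and of GALNT7 KD, with 0.785% and 0.784% of all normalised counts against 1.49% to 2.44% in the other 4 CWR22Rv1 libraries, and replicate 2 of GALNT7 OE, with 1.39% against 2.42% to 4.46% in the other 5 DU145 libraries. Counts of members are therefore also given with replicate 2 left out of both groups. GALNT7 went from 999 ± 122 to 461 ± 53.7 (SD, n = 3) normalised counts in CWR22Rv1 cells, a log2 change of -1.11 ± 0.13 (SE, adjusted p = 0.0051 in limma), and from 964 ± 75.8 to 2181 ± 176 (SD, n = 3) in DU145 cells, a log2 change of 1.18 ± 0.086 (SE, adjusted p = 8.0e-05 in limma). Of the DU145 markers, VIM, CAV1 and AXL were abundant in DU145 cells, while the basal keratin KRT5 was at 0 in every library. Differences were tested with limma on log2(normalised count + 1) in genes with a mean of at least 5, one cell line at a time, and were called at an adjusted p under 0.05 over all genes tested. Levels and fold changes on this scale are relative to the other RNA of a library, so a change in total RNA per cell is not seen. Fewer cells with a given RNA and less of it per cell cannot be told apart. The p-values measure only the spread between these samples.

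Of the 90 genes, 82 passed the filter on low values in CWR22Rv1 cells and 83 in DU145 cells. UQCRHL, COX4I2, COX6A2, COX7A1, COX7B2, COX8C and ATP5MGL did not pass in either line; most of these are tissue-restricted isoforms of complex IV. In DU145 cells COX6B2, the testis form of COX6B1, also passed. In shControl cells, per kilobase of transcript and over members with a mean of at least 200 normalised counts, the median level was 2449 for complex I, 3312 for complex II, 3865 for complex III, 6962 for complex IV and 4126 for complex V. In OEControl cells the same medians were 1052, 3381, 1591, 2401 and 1938. Complex I had the lowest median per kilobase in both lines. Because each line had its own scaling, levels are not compared between them. ATP5MF, a small membrane subunit of ATP synthase, was highest per kilobase in shControl cells at 29195, and ATP5F1B, the catalytic beta subunit, was highest in OEControl cells at 7097. Such levels depend on the annotated length used, 323 bases for ATP5MF and 1839 for ATP5F1B. By normalised counts alone, ATP5F1B was above ATP5MF in shControl cells, at 43801 against 9430.

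The promoters of several members are shown because they hold the sites by which these genes are known, or because the gene changed most. Sequences are from RefSeq (GRCh38.p14), are given 5′ to 3′ on the gene's strand and end at the base before the annotated start. Capitals mark matches on either strand to the NRF1 core GCGCANGCG, the ETS core CCGGAAG or the YY1 core AAGATGGCG. ATP5PF (a peripheral stalk subunit) held all 3 motifs; UQCRFS1 (the Rieske iron-sulfur protein), ATP5MC2 (an ATP synthase c subunit) and ATP5PO (peripheral stalk) held the NRF1 core; COX8A, UQCRH and NDUFB7 held the ETS core; ATP5MC1 held none of the 3 motifs.
ATP5PF (chr21:25735055-25735179, minus strand): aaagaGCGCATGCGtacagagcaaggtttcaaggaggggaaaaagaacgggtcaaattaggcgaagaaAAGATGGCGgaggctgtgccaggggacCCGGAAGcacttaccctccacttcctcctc
UQCRFS1 (chr19:29213152-29213211, minus strand): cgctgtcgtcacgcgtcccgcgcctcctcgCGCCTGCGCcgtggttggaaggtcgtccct
ATP5MC2 (chr12:53676084-53676143, minus strand): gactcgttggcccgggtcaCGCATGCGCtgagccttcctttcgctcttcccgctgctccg
ATP5PO (chr21:33915805-33915864, minus strand): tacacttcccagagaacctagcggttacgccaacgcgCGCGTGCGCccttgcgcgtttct
COX8A (chr11:63974560-63974619, plus strand): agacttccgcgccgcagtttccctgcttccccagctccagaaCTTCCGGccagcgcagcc
UQCRH (chr1:46303638-46303697, plus strand): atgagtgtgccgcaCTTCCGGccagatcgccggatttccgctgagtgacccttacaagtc
NDUFB7 (chr19:14572067-14572126, minus strand): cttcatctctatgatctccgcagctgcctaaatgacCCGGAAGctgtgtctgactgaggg
ATP5MC1 (chr17:48892727-48892786, plus strand): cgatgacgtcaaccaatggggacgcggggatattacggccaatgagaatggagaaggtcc

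RefSeq promoters matched 68 of the 90 members by gene identifier or symbol. Within 250 bases before and 50 after the start, 22 of the 68 (32.4%) held the NRF1 core, against 8.05% of all 27305 promoters. The ETS core was found in 19 (27.9%), against 10.7%, and the YY1 core in 8 (11.8%), against 1.85%. At least 1 of the 3 was present in 39 members (57.4%) and in 18.3% of all promoters, and in 4 members 2 matches to the NRF1 core overlapped each other, while matches to different motifs overlapped in none. These are letter matches and not binding data. The 27305 promoters were not limited to genes expressed in these cells, so the shares are not set against those of other expressed genes.

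In DU145 cells, most respiratory subunit mRNAs were higher with GALNT7 overexpression. Of the 83 genes tested, 62 were higher in GALNT7 OE cells and 2 were lower, whereas 22.9% of all genes tested were higher and 20.5% lower. The median log2 fold change of the members was 0.44, a 1.35-fold difference, beside -0.01 for all genes. Among genes with a mean of at least 200 normalised counts, where most members lie, 34.3% were higher, 22.5% lower, and the median was 0.10. All 62 higher members had no overlap between the 3 OEControl and the 3 GALNT7 OE libraries, but they were picked by their call. The lack of overlap is therefore not further support, and its share over all genes was not counted. A single gene with 3 libraries against 3 cannot go below p = 0.1 in a two-sided exact permutation test, so the calls rest on the limma fit across all genes. With libraries rescaled to their 75th percentile, the share of all called genes that were higher was 41.6% in place of 52.8%, and 57 to 64 members were higher under every alternative tried. With replicate 2 left out of both groups, 57 were higher and 1 lower.

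The rise was seen in every complex. In complex I, 25 of 39 members were higher and 1 lower (median log2 fold change 0.40), in complex II 3 of 4 were higher (0.27), in complex III 7 of 8 (0.47), in complex IV 10 of 12 with 1 lower (0.52), and in complex V 17 of 20 (0.55). Against the mean of the OEControl libraries, the median member of complex II lay 0.28, 0.24 and 0.29 higher on the log2 scale in GALNT7 OE replicates 1, 2 and 3, and that of complex V 0.51, 0.53 and 0.60 higher. The same medians were 0.36 to 0.46 for complex I, 0.43 to 0.53 for complex III and 0.48 to 0.52 for complex IV. All GALNT7 OE libraries lay above all OEControl libraries, which were within 0.05 of 0, in each of the 5 complexes. Complex II was lowest and complex V highest under the main fit, both other scalings and the GC correction described below, but differences between complexes were not tested, since subunits are not replicates.

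**Figure D1:**
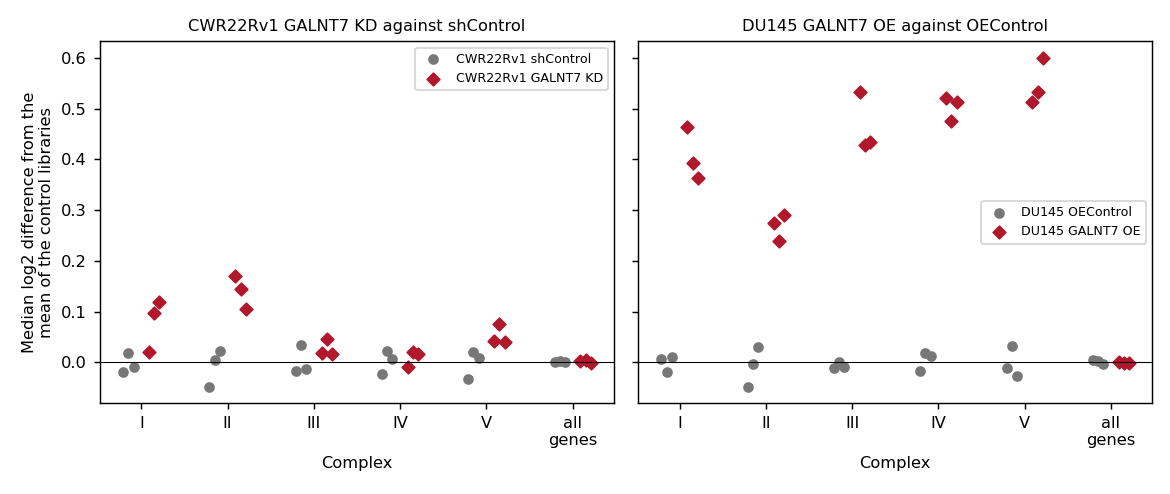
Each point is 1 library: the median, over the tested members of a complex or over all genes tested, of the log2 difference from the mean of the control libraries (y axis), for complexes I to V and all genes (x axis). Grey circles are control libraries and red diamonds GALNT7 KD (left) or GALNT7 OE (right); in DU145 cells every GALNT7 OE library lies above every control library in all 5 complexes, while the medians of all genes lie near 0.

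Complex I is built from a peripheral arm that oxidises NADH and a membrane arm that pumps protons. NDUFS1, the largest iron-sulfur subunit of the peripheral arm, had 1624, 1837 and 1618 normalised counts in the OEControl libraries and 2971, 3189 and 2929 in the GALNT7 OE libraries, a log2 change of 0.84 ± 0.069 (SE, adjusted p = 0.00013 in limma). The lowest GALNT7 OE library lay well above the highest control. Of the other nuclear core subunits, which carry the cofactors and the ubiquinone site, NDUFV1 (0.47), NDUFS3 (0.40) and NDUFV2 (0.30) were also higher. Overlapping groups were found for NDUFS7 with a log2 fold change of 0.19 (adjusted p = 0.42) and for NDUFS8 with 0.17 (adjusted p = 0.18). The genes whose symbols start with NDUFA, among them NDUFAB1, NDUFA4 and NDUFA4L2, were higher in 7 of 14. The accessory subunits named NDUFB, which belong to the membrane arm, were higher in 9 of 11. NDUFA6 (0.76), NDUFB1 (0.69), NDUFB8 (0.65) and NDUFA9 (0.65) led these. NDUFC1, a small membrane-arm subunit, rose by 0.65. Of the accessory subunits named NDUFS or NDUFV, NDUFS5, NDUFS6 and NDUFS4 rose by 0.63, 0.47 and 0.44, and NDUFV3 had a log2 fold change of -0.04 (adjusted p = 0.69). NDUFA4, which was named for complex I and is now assigned to complex IV, rose by 0.64, and its isoform NDUFA4L2 was low and uneven, with 8.59, 10.2 and 61.5 normalised counts in the OEControl libraries and 17.0, 15.7 and 19.9 in the GALNT7 OE libraries.

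NDUFB7, a membrane-arm subunit on chromosome 19 (GRCh38, 14566078 to 14572062), went against the rest. It had 688, 745 and 833 normalised counts in the OEControl libraries and 489, 369 and 365 in the GALNT7 OE libraries, a log2 change of -0.90 ± 0.14 (SE, adjusted p = 0.0021 in limma). The groups did not overlap, and the other 10 NDUFB genes had log2 fold changes of 0.01 (NDUFB11) to 0.69 (NDUFB1). The call was kept under all 19 alternatives, but the fold change was -0.45 after a correction for GC content that was chosen after the data were seen, the largest shift of any setting.

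**Figure D2:**
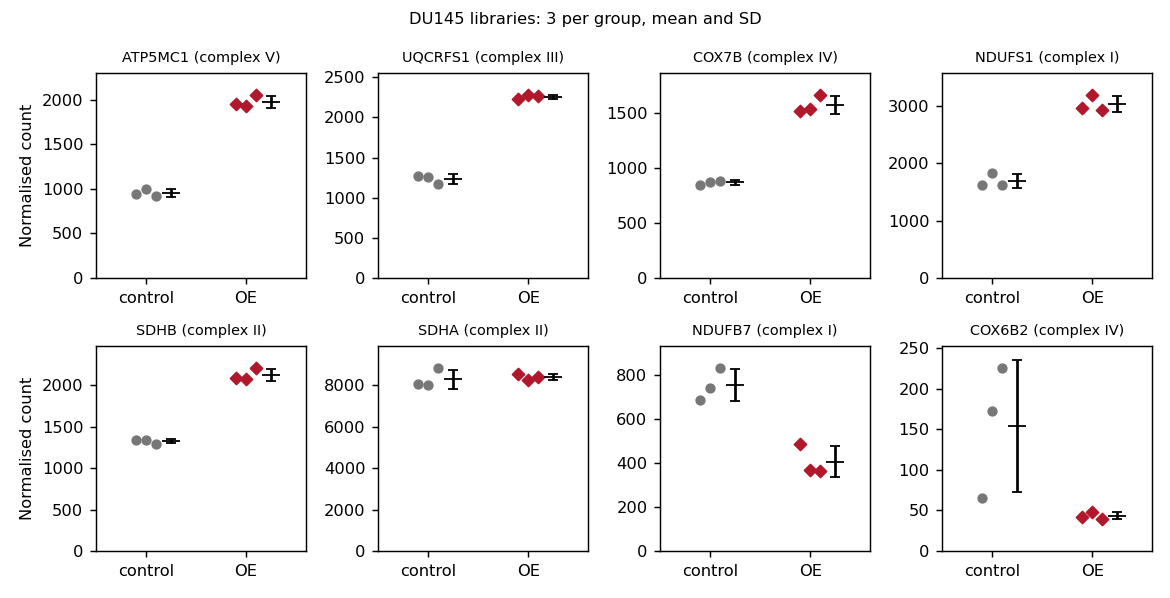
Normalised counts (y axis, from 0) of 8 members in the 3 OEControl (grey circles) and 3 GALNT7 OE libraries (red diamonds) of DU145 cells, with the mean and SD beside each group. The groups do not overlap for ATP5MC1, UQCRFS1, COX7B, NDUFS1 and SDHB (higher) or NDUFB7 and COX6B2 (lower), and they overlap for SDHA.

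Complex II, which oxidises succinate, changed unevenly. SDHB, its iron-sulfur subunit, had 1337, 1342 and 1296 normalised counts in the OEControl libraries and 2086, 2076 and 2207 in the GALNT7 OE libraries, a log2 change of 0.68 ± 0.053 (SE, adjusted p = 0.00010 in limma). SDHC, a membrane anchor, rose from 4996 ± 246 to 6386 ± 205 (SD, n = 3) and SDHD, the other anchor, from 2431 ± 117 to 2756 ± 32.8, with log2 fold changes of 0.35 and 0.18. SDHA, the flavoprotein that binds succinate, had 8059.7, 8007 and 8832 normalised counts in the OEControl libraries and 8549, 8259 and 8401 in the GALNT7 OE libraries. These groups overlapped, and the difference of 0.02 had a 95% interval of -0.09 to 0.13, below the whole interval of SDHB (0.55 to 0.80). Reads of SDHA may be shared with its pseudogene copies, and the SDHD call was lost in 12 of 19 alternatives, among them both other scalings and each single library left out except OEControl replicate 2 (adjusted p up to 0.26).

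In complex III, UQCRFS1, the Rieske protein whose promoter is printed above, had 1276, 1256 and 1168 normalised counts in the OEControl libraries and 2232, 2278 and 2268 in the GALNT7 OE libraries, a log2 change of 0.87 ± 0.056 (SE, adjusted p = 4.4e-05 in limma). The core subunits UQCRC1 and UQCRC2 rose by 0.52 and 0.58, UQCRQ by 0.57, UQCRB, which binds ubiquinone, by 0.43 and UQCRH, the hinge protein, by 0.42. UQCR10 rose by 0.23, a call lost under the same 12 of 19 alternatives as that of SDHD, and UQCR11 had a log2 fold change of 0.07 (adjusted p = 0.51). Cytochrome c1 (CYC1), the remaining nuclear catalytic subunit of the complex, and cytochrome c itself (CYCS) do not fall under the naming rule. CYC1 rose from 1711 ± 40.6 to 2798 ± 45.5 and CYCS from 1905 ± 18.7 to 4401 ± 265 (SD, n = 3), with log2 fold changes of 0.71 and 1.21.

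In complex IV, COX7B had 846, 877 and 887 normalised counts in the OEControl libraries and 1518, 1537 and 1665 in the GALNT7 OE libraries, a log2 change of 0.85 ± 0.063 (SE, adjusted p = 8.0e-05 in limma). COX8A (0.75), COX6C (0.66), COX7C (0.56), COX6A1 (0.53), COX7A2 (0.53), COX6B1 (0.52), COX5A (0.47), COX7A2L (0.38) and COX4I1 (0.28) were also higher. COX5B, the zinc-binding partner of COX5A, had a log2 fold change of 0.10 with an interval of -0.08 to 0.28. COX6B2 fell where its common form COX6B1 rose, with 65.9, 173 and 226 normalised counts in the OEControl libraries and 42.1, 48.1 and 39.9 in the GALNT7 OE libraries. That is a log2 change of -1.64 ± 0.43 (SE, adjusted p = 0.020 in limma), and the 3 controls themselves spanned 65.9 to 225.7. Without OEControl replicate 2 or 3, or GALNT7 OE replicate 1 or 3, or replicate 2 of both groups, the COX6B2 call was lost (adjusted p up to 0.11). The muscle and lung isoforms COX4I2, COX6A2 and COX7A1 and the isoform COX7B2 were at 0 in all 6 libraries.

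In complex V all 3 genes of the c-ring, all 4 of the peripheral stalk and all 5 of the small membrane subunits were higher. The F1 head, where ATP is made, was higher in 4 of 5: ATP5F1B had 13149, 13233 and 12769.6 normalised counts in the OEControl libraries and 23034, 22193 and 22619.7 in the GALNT7 OE libraries, a log2 change of 0.79 ± 0.030 (SE, adjusted p = 6.2e-06 in limma), ATP5F1A rose by 0.73, ATP5F1C by 0.44 and ATP5F1E by 0.26. ATP5F1D, the delta subunit, had a log2 fold change of 0.12 (adjusted p = 0.36). Of the small membrane subunits ATP5MF (0.82), ATP5MD (0.74) and ATP5ME (0.73) led, and of the stalk ATP5PO (0.78), followed by ATP5PB (0.66). The inhibitor ATP5IF1, which stops the enzyme from running backwards, rose with them by 0.43. The read-through gene ATP5MF-PTCD1 (-0.08) shares exons with ATP5MF, and reads may be split between them.

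**Figure D3:**
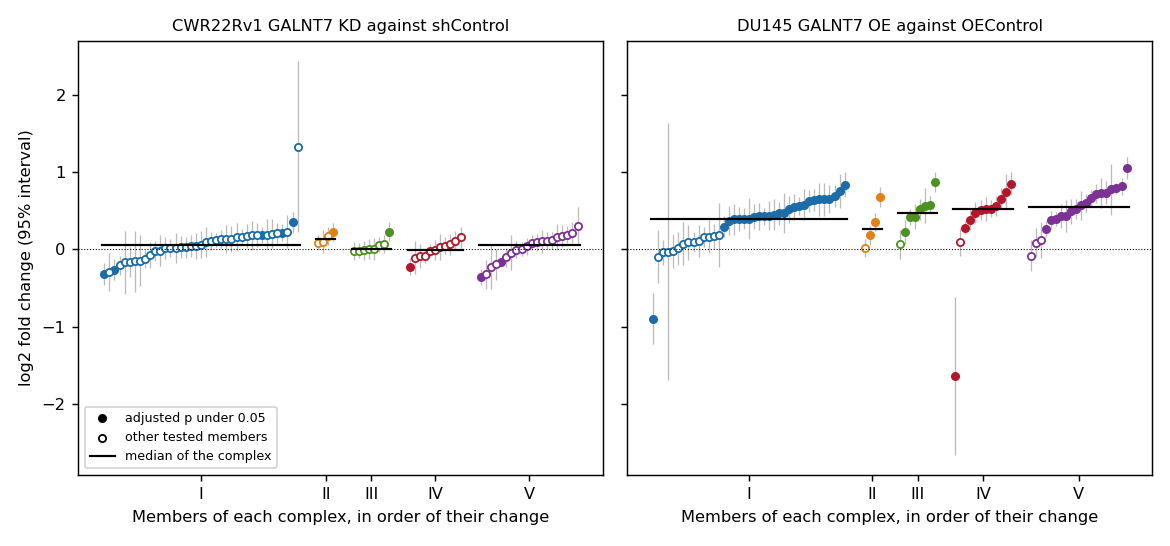
Log2 fold change (y axis, bars are 95% intervals from limma) of each tested member, ordered by size within complexes I to V (x axis), in CWR22Rv1 (left) and DU145 cells (right). Filled points passed an adjusted p of 0.05, open points did not, and black lines are the medians, which lie between -0.01 and 0.14 on the left and between 0.27 and 0.55 on the right.

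The c-ring turns as protons pass, and its single protein is encoded by 3 genes that differ only in the mitochondrial targeting sequence that is cut off. ATP5MC1 had the largest rise of all members, with 947, 998 and 916 normalised counts in the OEControl libraries and 1954, 1924 and 2051 in the GALNT7 OE libraries, a log2 change of 1.05 ± 0.060 (SE, adjusted p = 2.8e-05 in limma). ATP5MC3 rose by 0.60 and ATP5MC2 by 0.39. Per kilobase of transcript, the normalised counts of the 3 genes summed to 8462 to 8648 in OEControl and 12608 to 13121 in GALNT7 OE libraries. The share of ATP5MC1 in that sum was 20.1% to 21.4% in OEControl and 28.31% to 28.99% in GALNT7 OE libraries, and that of ATP5MC2 was 62.0% to 62.9% and 54.4% to 54.8%. ATP5MC2 remained the main source in every library.

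Transcripts of the members that rose had lower GC content than those that did not. The median GC was 47.3% for the 62 higher members and 58.1% for the 19 that did not pass, while NDUFB7 had 65.0% and COX6B2 59.0%. Across the 83 members, Spearman's correlation of GC content and log2 fold change was -0.41, and across 17907 genes of the same libraries it was -0.27; these are descriptions across genes that share libraries. Of the 11 tested members on chromosome 19, a set chosen after the values were seen, 3 were higher and 2 lower, against 59 higher and no lower call in the other 72; of all 1289 chromosome 19 genes tested, 16.1% were higher and 24.05% lower. When the libraries were centred within GC bins, 64 members were higher and 2 lower, and 57 of the 62 were among the 64. NDUFS7, NDUFS8, NDUFA13, NDUFB11, UQCR11, ATP5F1D and NDUFC2-KCTD14 were gained and NDUFV2, NDUFB6, SDHD, UQCR10 and ATP5F1E were lost. On that scale 7 of 11 members on chromosome 19 were higher.

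The other genes of the pathway came from lists chosen with earlier results known. In DU145 cells 9 of 16 complex I assembly factors were higher, led by NDUFAF4 (0.98), NDUFAF2 (0.82) and NDUFAF6 (0.80). For complex III it was 4 of 6, led by LYRM7 (0.99), which hands UQCRFS1 to the complex, and for complex IV 16 of 24, led by CMC2 (0.81), COX11 (0.76) and COX17 (0.73), the last 2 of which deliver copper. COX14 was lower (-0.25). For complex V 2 of 4 were higher, FMC1 (0.54) and ATPAF1 (0.30), with a median of 0.19 over only 4 genes. Beside these counts, 22.9% of all genes tested were higher, and 34.3% of those with a mean of at least 200 normalised counts. By limma 0 of the 4 complex II assembly factors passed (1 had an unadjusted p under 0.05, and 0 passed in edgeR or DESeq2), with log2 fold changes of -0.15 (SDHAF1) to 0.27 (SDHAF3).

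Of the transcription and biogenesis regulators, 9 of 11 tested were higher, beside 22.9% of all genes tested. GABPB1, the partner of the ETS factor GABPA, led with 0.89, followed by TFB1M (0.68). GABPA rose by 0.30, NRF1 by 0.52, YY1 by 0.50 and TFAM, which packages mitochondrial DNA, by 0.46. The coactivator PPARGC1A was at 0 in all but 2 of the 12 libraries of both lines and reached at most 18.6 normalised counts. Members with and without a motif had close values, and no difference between them was tested. Of the members tested with a RefSeq promoter, 15 of 21 with the NRF1 core were higher (median 0.44) and 34 of 44 without it (0.43), 15 of 19 with the ETS core (0.43) and 34 of 46 without it (0.43), and 7 of 8 with the YY1 core (0.51) and 42 of 57 without it (0.43). Of the promoters printed above, ATP5MC1, with none of the motifs, rose most, and NDUFB7, with an ETS core, fell.

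Of 14 TCA cycle enzymes 9 were higher, beside 22.9% of all genes tested. They were led by MDH2 (0.73), FH (0.72) and DLD (0.50). The 13 mRNAs encoded by mitochondrial DNA went the other way: in limma 0 were higher (0 also at an unadjusted p under 0.05 and in edgeR and DESeq2) and 7 were lower, and all 13 had negative log2 fold changes, with a median of -0.83. edgeR called 4 of the 13 lower and DESeq2 8. Of all genes tested, limma called 20.5% lower. GALNT7 OE replicate 2 was the lowest GALNT7 OE library for all 13, and without it the median was -0.48, with 7 called lower. With replicate 2 left out of both groups the median was -0.53 and 7 were lower. Without GALNT7 OE replicate 1 the count was 3, without replicate 3 it was 10, and without any 1 of the OEControl libraries it was 2. MT-CO1, the catalytic core of complex IV, had 198935, 197044 and 244085 normalised counts in the OEControl libraries and 105211, 73349 and 126461 in the GALNT7 OE libraries, a log2 change of -1.10 ± 0.19 (SE, adjusted p = 0.0037 in limma), while nuclear complex IV subunits had a median of 0.52 in the same libraries. Of those not called, MT-ND4 had 100800.0, 98819 and 121832 normalised counts in the OEControl libraries and 89540.4, 43618 and 114339 in the GALNT7 OE libraries (adjusted p = 0.28), with overlapping groups.

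In CWR22Rv1 cells, few respiratory subunit mRNAs differed after GALNT7 knockdown. Of the 82 genes tested, 5 were higher and 5 lower in GALNT7 KD cells, 6.10% in each direction. Of all genes tested, 5.28% were higher and 3.79% lower. Among genes with a mean of at least 200 normalised counts, 6.98% were higher and 4.69% lower, with a median log2 fold change of 0.01. The shares of the members were thus near the background. Their median log2 fold change was 0.05 (all genes -0.01). By complex it was 0.06 for complex I (3 higher and 2 lower of 39), 0.14 for complex II (1 higher of 4) and 0.00 for complex III (1 higher of 8). It was -0.01 for complex IV (1 lower of 11) and 0.06 for complex V (2 lower of 20). All 4 complex II genes had positive changes, from 0.09 (SDHA) to 0.22 (SDHC). Against the mean of the shControl libraries, the median member of complex II lay 0.17, 0.14 and 0.11 higher in GALNT7 KD replicates 1, 2 and 3, above all 3 shControl libraries. The same held for complex I, at 0.021 to 0.119 with shControl libraries up to 0.019. It also held for complex V, at 0.040 to 0.076 with shControl libraries up to 0.020. In complexes III and IV the libraries of the groups overlapped.

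The 5 higher genes were NDUFV2, a core iron-sulfur subunit of complex I, UQCRC1, SDHC, NDUFS1 and NDUFB4. NDUFV2 had 3449, 3573 and 3757 normalised counts in the shControl libraries and 4695, 4752 and 4301 in the GALNT7 KD libraries, a log2 change of 0.35 ± 0.059 (SE, adjusted p = 0.017 in limma). The others had log2 fold changes of 0.23 (UQCRC1), 0.22 (SDHC), 0.22 (NDUFS1) and 0.19 (NDUFB4), with no overlap between groups. Among members that did not pass, ATP5F1C, the gamma subunit of the F1 head, had 3422, 3809.8 and 3781 normalised counts in the shControl libraries and 2987, 3165 and 2665 in the GALNT7 KD libraries (log2 fold change -0.32, adjusted p = 0.052). Of the 5 lower genes, ATP5MC2 had 9145, 9578 and 9759 normalised counts in the shControl libraries and 7173, 7362 and 7698 in the GALNT7 KD libraries, a log2 change of -0.36 ± 0.044 (SE, adjusted p = 0.0068 in limma). NDUFA12 (-0.32), NDUFB10 (-0.26), COX6A1 (-0.22) and ATP5F1B (-0.16) followed. The calls were sensitive to each library: when any 1 of the 6 was left out, 0 to 3 members were higher and 1 to 4 lower. Calls over all genes fell too, from 1623 to between 539 and 1336 in these fits. They fell to 408 with replicate 2 left out of both groups. With replicate 2 left out of both groups limma called 0 members in either direction, while 15 had an unadjusted p under 0.05 and were higher and 8 lower (edgeR and DESeq2 were not run on these 4 libraries). ATP5MC2 lost its call only then (adjusted p = 0.063) and without the trend (adjusted p = 0.052), whereas NDUFS1 lost it in 14 of 19 alternatives.

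Of the 5 lower genes, 4 lie on chromosome 12 (ATP5MC2, ATP5F1B, NDUFA12 and COX6A1), with NDUFB10 on chromosome 16. The chromosome 12 genes of the same libraries were lower as a body, with 202 of 922 called lower (21.9%) and a median log2 fold change of -0.28. The 6 members there had a median of -0.22. NDUFA9, the fifth, had a log2 fold change of -0.21 (adjusted p = 0.062), and NDUFA4L2, the sixth, had 28.001, 61.9 and 25.6 in the shControl libraries and 121.8, 122.7 and 50.1 in the GALNT7 KD libraries, a difference that did not pass (log2 fold change 1.33, adjusted p = 0.13). Outside chromosome 12, 5 of 76 members were higher and 1 lower. The part of the chromosome in the single gene changes was not tested. In the c-ring the share of ATP5MC2 per kilobase was 52.7% to 53.2% in shControl and 43.9% to 46.1% in GALNT7 KD libraries, and the 3 genes summed to 21354 to 22602 and 20045 to 20654 normalised counts per kilobase. ATP5MC1 had a log2 fold change of 0.11 (adjusted p = 0.19) and ATP5MC3 one of 0.12 (adjusted p = 0.17).

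**Figure D4:**
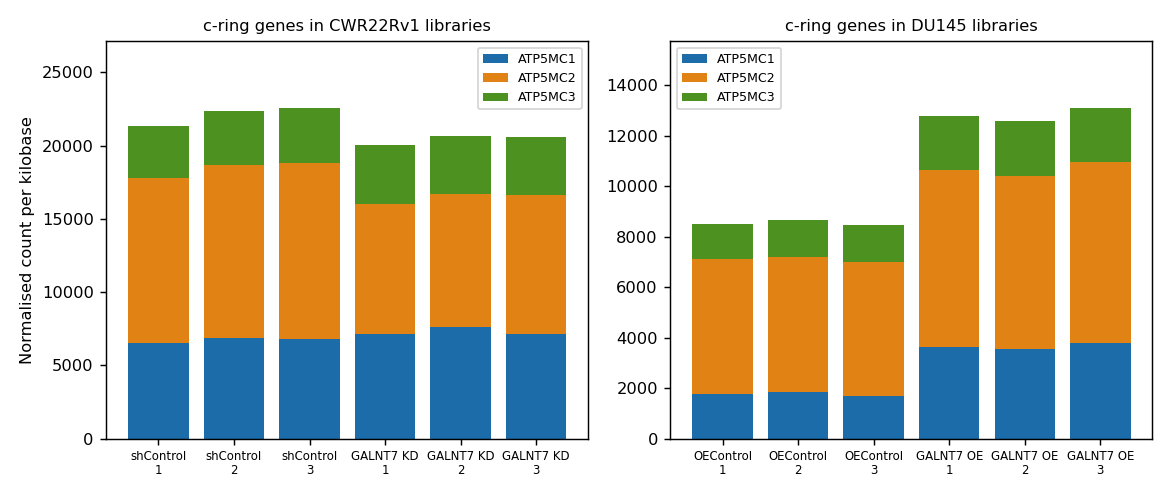
Normalised counts per kilobase of transcript (y axis, from 0) of the 3 genes that encode the c subunit of ATP synthase, stacked for each library of CWR22Rv1 (left) and DU145 cells (right; the tables were scaled separately). The ATP5MC2 share is 52.7% to 53.2% in shControl and 43.9% to 46.1% in GALNT7 KD libraries, and the ATP5MC1 share is 20.1% to 21.4% in OEControl and 28.31% to 28.99% in GALNT7 OE libraries.

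Of the pathway genes outside the rule, COX15 (0.32) and CMC2 (0.26) for complex IV, TMEM70 (0.37) for complex V, TFB2M (0.32) and the TCA cycle enzymes DLD (0.31), IDH2 (0.28) and FH (0.25) were higher in GALNT7 KD cells. GABPB1 (-0.52) and CS, citrate synthase on chromosome 12 (-0.31), were lower. Of the 26 assembly factors of complexes I, II and III, limma called 0, while 5 had an unadjusted p under 0.05, edgeR called 0 and DESeq2 3, all higher. The mitochondrial mRNAs had a median log2 fold change of -0.51, with 1 of 13 called, MT-ND6 (-1.08). Replicate 2 was the lowest library of its group for all 13 in both groups, and MT-ATP6, a subunit of the proton channel of ATP synthase, had 64257, 16080.0 and 63559 normalised counts in the shControl libraries and 33195, 13205 and 30694 in the GALNT7 KD libraries. At replicate numbers 1 and 3 all 13 were lower in GALNT7 KD cells, and at number 2 it was 7 of 13. With replicate 2 left out of both groups, an alternative chosen after the data were seen, 11 of 13 were called lower and the median was -0.75. Over all genes, that fit called 408 of 17847 in either direction. With single libraries left out, 1 of the 13 was called and their median was -1.06 (without shControl replicate 2) to -0.19 (without GALNT7 KD replicate 2).

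GALNT7 fell in one line and rose in the other, so the same genes could be set side by side. Of the 82 members tested in both, 10 passed in both comparisons. NDUFV2, NDUFS1, NDUFB4, SDHC and UQCRC1 were higher in both, and NDUFA12, NDUFB10, COX6A1, ATP5F1B and ATP5MC2 were lower in knockdown and higher in overexpression, 4 of these 5 on chromosome 12. All 10 were higher in overexpression, where 62 of the 83 members tested and 22.9% of all genes tested were higher. A higher call in overexpression was thus common among members as a whole. The same overlap over all genes was not counted. Across the 82 members the changes in the separate cell lines had a Pearson correlation of -0.08 and a Spearman correlation of -0.005, and a Pearson correlation of 0.11 over the 76 outside chromosome 12. Among the members with the largest rises in DU145 cells, NDUFS1 was also higher in knockdown (0.22) and ATP5F1B lower (-0.16), and UQCRFS1 had 2175, 2412 and 2311 normalised counts in the shControl libraries and 2325, 2379.8 and 2213 in the GALNT7 KD libraries, with a log2 fold change of 0.00 (95% interval -0.14 to 0.15). The lines differ in more than the direction of GALNT7, and a difference between them was not tested.

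**Figure D5:**
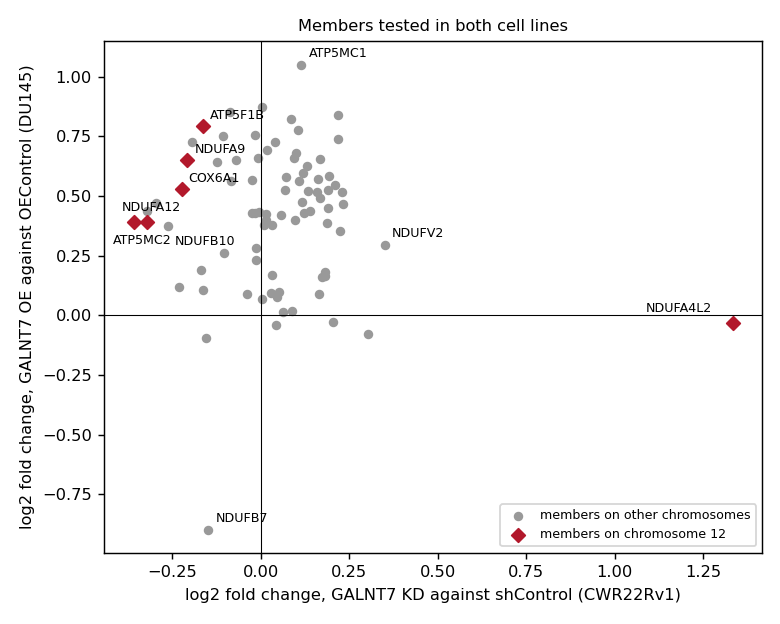
Log2 fold change of the 82 members tested in both lines, with GALNT7 KD against shControl on the x axis and GALNT7 OE against OEControl on the y axis; red diamonds are the 6 members on chromosome 12. Most points lie above 0 on the y axis and spread to both sides of 0 on the x axis, and 5 of the 6 chromosome 12 members lie to its left.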

How the data were processed

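Libraries from polyadenylated RNA (stranded TruSeq kit) of 12 samples in 4 groups were used. The authors deposited, in 1 table per cell line, a signal, the normalised count, in which the reads of a gene are scaled by the size factor of their library. The submitters' processing notes name FastQC, Salmon, DESeq2 and R 3.5.3 and the build hg38, with no role or order. Divided by the smallest value above 0 in its library, 100% of the values were within 0.01 of a whole number, which was taken as the reads. In OEControl replicate 3 and GALNT7 OE replicate 1 that smallest value was close to 1 (1.0075 and 1.0022), where recovered reads are harder to tell from rounded values. Gene names, positions, transcript lengths and GC content were those of GENCODE release 29, and 94.4% of the identifiers were matched. Counts per kilobase use the median length of a gene's protein-coding transcripts.

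Each cell line was fitted by itself in R 4.3.3 with limma 3.58.1 and a trended prior on log2(normalised count + 1), keeping genes whose mean over its 6 libraries reached 5, with Benjamini-Hochberg adjustment over all genes and a threshold of 0.05. The step was tested on simulated data. Alternatives were other pseudocounts, filters, scalings and thresholds, limma without the trend, edgeR 4.0.16 and DESeq2 1.42.0 on the recovered reads, the replicate number as a block, each library left out, members outside chromosome 12, and NDUFA4 and NDUFA4L2 counted in complex IV. A GC correction, in which the log2 values of each library were centred within 20 bins of transcript GC content, and a fit without replicate 2 of both groups were added after seeing the data. Named genes were GALNT7, the 5 highest and 5 lowest called members per comparison, those called in both, catalytic or core subunits, isoform pairs, members on chromosome 12, and others in the account of their complex. From each list of other pathway genes, up to 3 called genes per direction were named, with a few more regulators given as background to the motifs. The members and lists were chosen with earlier results of these data known. The values of 1 member and 1 marker gene are not reported here, although counts and medians include the member. Reads of genes with near-identical copies or shared exons, such as UQCRH and UQCRHL or NDUFC2 and NDUFC2-KCTD14, may be split between them.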

Additional observations from a re-analysis of the deposited data

How the results depend on the processing

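In DU145 cells 57 to 64 members were higher under every alternative. The 2 lower members were 1 at an adjusted p of 0.01, 1 with replicate 2 left out of both groups and 1 to 2 with a library left out. The median log2 fold changes of complexes I to V stayed positive but moved: with 75th percentile scaling they were 0.30, 0.17, 0.37, 0.42 and 0.45, with quantile normalisation 0.34, 0.19, 0.38, 0.42 and 0.45, and after the GC correction 0.43, 0.20, 0.38, 0.41 and 0.49. Complex III was 0.43 with no filter on low values, complex IV was 0.55 with replicate 2 left out of both groups, and complex V was 0.51 to 0.57 with a library left out. Scaling to the 75th percentile moved the median of all genes from -0.01 to -0.11, which is close to the shift of each complex.

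In CWR22Rv1 cells the 5 higher members were 1 with no filter on low values, 1 with 75th percentile scaling, 0 with limma without the trend, 0 with the replicate block, 0 at an adjusted p of 0.01, 0 with replicate 2 left out of both groups, 11 with DESeq2, 10 after the GC correction, and 0 to 3 with a library left out. The 5 lower members were 2 with no filter, 0 without the trend, 3 with the replicate block, 1 at 0.01, 0 with replicate 2 left out of both groups, 8 after the GC correction, and 1 to 4 with a library left out. edgeR gave 5 and 5. The complex III median was -0.021 with quantile normalisation, that of complex IV was -0.031 with 75th percentile scaling, 0.012 outside chromosome 12 and -0.028 to 0.020 with a library left out, and that of complex V was 0.088 with quantile normalisation and 0.090 outside chromosome 12. The signs of the complex III and IV medians in knockdown are therefore not settled. Over all genes tested the deviations of same-numbered libraries had correlations of -0.01 to 0.07 in CWR22Rv1 and 0.02 to 0.04 in DU145 cells, although the mitochondrial mRNAs were low in replicate 2 of both CWR22Rv1 groups, and the labels do not say that the numbers mark shared cultures. With the block 1 of the 13 mitochondrial mRNAs was called lower in knockdown and 9 in overexpression. Why calls were lost under any alternative was not tested. At these depths the precision is limited by 3 libraries per group, and intervals cover only the spread between them.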
